A study of Homo sapiens with 4 samples.

Results

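The genes described here encode 9 proteins that restrain apoptosis: the BCL2-like guardians BCL2, BCL2L1, MCL1, BCL2L2 and BCL2A1, the inhibitor of apoptosis (IAP) proteins XIAP, BIRC2 and BIRC3, and CFLAR, the decoy of caspase-8. They were chosen by gene symbol, and all 9 were found among the 28482 genes of the deposited table. RNA was sequenced from K562/G01, an imatinib-resistant derivative of K562, an established chronic myeloid leukemia line that carries the BCR-ABL1 fusion kinase. The 4 groups were TCF7 knockdown cells given imatinib at 1 µM for 48 hours, TCF7 knockdown cells without imatinib, scramble cells given the same imatinib treatment, and scramble cells without imatinib. All were infected with a lentivirus, and the virus of the knockdown cells carried RNA interference against the Wnt pathway transcription factor TCF7 while that of the scramble cells carried a scrambled control. Libraries are called treated or untreated by imatinib. Each group has 1 library. Separate infection or treatment of the cultures, and any selection of clones, is not stated in the labels.

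Cells commit to apoptosis through the mitochondria when BAX and BAK1 permeabilise the outer membrane, and the BCL2-like guardians prevent this by holding BAX, BAK1 and their BH3-only activators. IAP proteins act further on: XIAP binds and inhibits caspases directly, while BIRC2 and BIRC3 are ubiquitin ligases of the TNF receptor complex. CFLAR blocks caspase-8 at death receptors. In chronic myeloid leukemia BCR-ABL1 signals through STAT5, which is known to raise transcription of BCL2L1, and MCL1 is a short-lived protein whose level follows its synthesis closely.

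On GRCh38 with GENCODE 29, the BCL2-like genes lie at separate places: BCL2 (ENSG00000171791.12) at chr18:63123346-63320128 on the minus strand, BCL2L1 (ENSG00000171552.12) at chr20:31664452-31723989 on the minus strand, MCL1 (ENSG00000143384.12) at chr1:150574551-150579738 on the minus strand, BCL2L2 (ENSG00000129473.9) at chr14:23298790-23311759 on the plus strand and BCL2A1 (ENSG00000140379.7) at chr15:79960889-79971446 on the minus strand. Of the IAP genes, XIAP (ENSG00000101966.12) at chrX:123859724-123913979 on the plus strand stands alone, while BIRC3 (ENSG00000023445.13) at chr11:102317450-102339403 on the plus strand and BIRC2 (ENSG00000110330.8) at chr11:102347211-102378670 on the plus strand are neighbours. The gene CFLAR (ENSG00000003402.19) at chr2:201116104-201176687 on the plus strand completes the set. Antisense genes overlap BCL2, BCL2L1, XIAP and CFLAR, and their reads cannot be told apart from the members' without the strand setting; ABALON, in BCL2L1, had at most 24 counts in a library.

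The promoter sequences of BCL2L1 are shown because of its range of levels. That range was the largest among the members whose mean level reached 5 CPM (the count scaled to the library's total). Of the 3 XIAP windows, the 1 shown held the only TCF/LEF match among the promoters of members that passed the expression filter. The sequences are RefSeq windows on GRCh38.p14 from 250 bases before to 50 bases after an annotated start, and capitals mark a motif match. Windows were found for 7 members, 14 in all; those of MCL1 and BCL2L2 were not used here.
BCL2L1 upstream start (chr20:31723914-31724213, minus strand): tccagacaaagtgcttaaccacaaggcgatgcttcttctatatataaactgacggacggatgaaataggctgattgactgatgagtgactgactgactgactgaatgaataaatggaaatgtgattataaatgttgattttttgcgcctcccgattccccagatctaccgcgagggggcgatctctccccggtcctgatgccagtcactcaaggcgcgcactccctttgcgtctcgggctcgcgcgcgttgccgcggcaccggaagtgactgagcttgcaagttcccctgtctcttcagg
BCL2L1 downstream start (chr20:31722819-31723118, minus strand): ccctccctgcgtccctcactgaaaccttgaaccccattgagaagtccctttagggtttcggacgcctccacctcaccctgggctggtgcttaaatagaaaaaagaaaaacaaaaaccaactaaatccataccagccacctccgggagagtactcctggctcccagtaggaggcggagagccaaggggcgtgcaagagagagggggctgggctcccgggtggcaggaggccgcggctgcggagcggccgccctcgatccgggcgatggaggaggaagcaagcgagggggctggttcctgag
XIAP (chrX:123859458-123859757, plus strand): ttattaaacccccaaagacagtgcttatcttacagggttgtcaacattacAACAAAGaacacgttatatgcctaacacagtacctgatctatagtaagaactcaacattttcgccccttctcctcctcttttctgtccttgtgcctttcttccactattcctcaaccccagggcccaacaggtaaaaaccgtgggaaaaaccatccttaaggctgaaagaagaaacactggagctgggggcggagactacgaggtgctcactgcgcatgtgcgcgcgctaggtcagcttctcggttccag
The motifs were searched on both strands and did not overlap each other. The TCF/LEF core CTTTG followed by A or T at both next bases occurred in 13.8% of all 35116 promoters. The STAT motif TTCNNNGAA occurred in 7.66%. A narrow spelling of the NF-kB motif, GGGA and TTCC with any 2 bases between, occurred in 1.61%. The 14 windows held 2 matches. The TCF/LEF core lay on the minus strand in 1 of the 3 XIAP windows, 200 bases before the start of that window. A STAT match lay 168 bases before the start of BCL2A1. The windows of BCL2L1, BCL2, BIRC2, BIRC3 and CFLAR, and the other XIAP windows, held none of these exact letters. Other spellings of the motifs were not searched, so sites of these factors may be missed.

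The deposited counts summed to between 30634832 and 34095585 per library, with normalisation factors (TMM) between 0.994 and 1.01. TCF7 had 3.69 and 2.55 CPM in the knockdown libraries with and without imatinib, against 10.8 and 10.2 CPM in the matching scramble libraries. It fell with knockdown (log2 fold change -1.75, SE 0.206, edgeR adjusted p = 1.527e-07). All 9 erythroid and K562 marker genes were at 1 CPM or more in every library, with a summed level between 3260 and 3523 CPM. Of other cell types' markers, the 5 myelomonocytic genes found summed to between 38.1 and 47.9 CPM, nearly all LYZ, and the 5 epithelial and stromal genes to between 415.2 and 519.5 CPM, mainly KRT8 and KRT18. Of single genes, CD3D lay between 14.0 and 20.8 CPM and NKG7 between 0.302 and 2.17 CPM. ITGAM had 3.21 and 3.69 CPM in the knockdown libraries with and without imatinib, against 1.32 and 1.96 CPM in the matching scramble libraries. The markers CD79A, CD3E, MPO, CSF1R and CD14 were at or below 0.264 CPM in every library. Their part in the results below was not tested.

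MCL1 was the most abundant member in every library and BCL2L1 the next, whereas BCL2 was scarce and BCL2A1 and BIRC3 were nearly absent. Levels of different genes are compared here as deposited FPKM, which divides counts by a length. MCL1 had 62.1 FPKM in the treated knockdown library, 65.3 in the untreated knockdown library, 69.8 in the treated scramble library and 68.2 in the untreated scramble library. BCL2L1 had 39.7, 24.6, 29.7 and 26.6 FPKM in the same libraries, BIRC2, whose protein ubiquitinates RIPK1, 15.5, 17.4, 15.2 and 15.7, and CFLAR 7.27, 7.25, 7.81 and 7.32. XIAP lay between 4.77 and 5.50 FPKM and BCL2L2, which encodes BCL-w, between 3.51 and 4.99. In these bulk libraries fewer cells with a transcript and less of it per cell cannot be told apart. BCL2, the founding member of the family, reached only 0.241 to 0.441 FPKM.

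The order of the members was the same from MCL1 through BIRC2 to CFLAR in all 4 libraries. XIAP and BCL2L2 could not be ordered under imatinib, where their 95% counting intervals overlapped in both libraries, and neither could BCL2A1 and BIRC3 in any library, nor BCL2 and BCL2A1 in the untreated knockdown library. All other neighbours in the order were separated by more than counting error. All intervals in the text are computed from the counts and stand for counting error alone. They may be too narrow even for that, because amplified reads may repeat a molecule. Counts are per gene and sum all splice forms, including the short forms of BCL2L1 and MCL1 that are known to promote apoptosis.

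Per length, the guardians were divided mainly between MCL1 and BCL2L1. BCL2L1 made up 37.1% of the summed FPKM of the BCL2-like members in the treated knockdown library, 26.0% in the untreated knockdown library, 28.3% in the treated scramble library and 26.9% in the untreated scramble library. MCL1 took 58.0%, 69.3%, 66.5% and 69.2%, and BCL2L2 4.66%, 4.21%, 4.73% and 3.55%. BCL2 took at most 0.420%. The treated knockdown library therefore stood apart from the other 3 by a larger BCL2L1 share. The raw count of BCL2L1 per count of MCL1, which needs no scaling between libraries, was 0.484 (exact binomial 95% interval 0.467 to 0.503) in that library. It was 0.285 (0.273 to 0.298) in the untreated knockdown library, 0.323 (0.310 to 0.335) in the treated scramble library and 0.295 (0.283 to 0.308) in the untreated scramble library. Per count of BCL2L2, which has 52.3% GC, the treated knockdown library was not set apart from the untreated scramble library. The ratios were 6.297 (5.80 to 6.85) and 5.996 (5.45 to 6.61) in these libraries, with overlapping intervals. They were lower in the untreated knockdown library, at 4.89 (4.44 to 5.39), and in the treated scramble library, at 4.74 (4.37 to 5.14). A trend with GC content, described below, was not removed from these shares and counts. BCL2L1 has 56.9% GC and MCL1 45.1%. With a trend on GC and length removed, the log2 ratio of BCL2L1 for imatinib over none in knockdown cells went from 0.69 to 0.36.

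**Figure D1:**
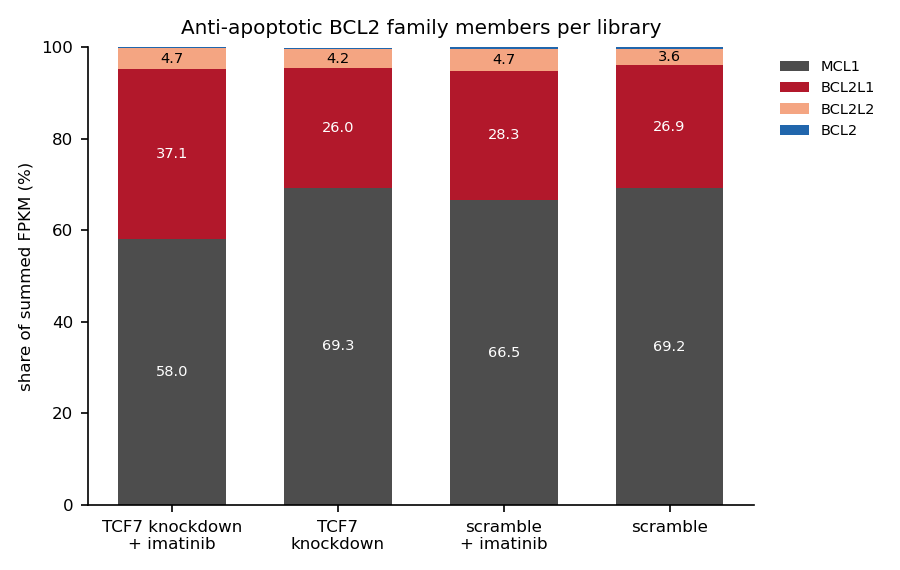
Share of each BCL2-like gene (stacked bars, %) in the summed deposited FPKM of the BCL2-like members, for 1 library per group. BCL2L1 took 37.1% in the treated knockdown library and between 26.0% and 28.3% in the others, with no correction for GC content. BCL2 is a thin line at the top and BCL2A1, at most 0.127%, is not drawn.

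The expression filter asked for at least 1 CPM in 2 or more of the libraries, and 7 of the 9 members passed it, as did 13296 genes in all. BCL2A1, a guardian induced by NF-kB, had 0 counts in the treated knockdown library, 4 in the untreated knockdown library, and 0 in each scramble library. With no read, the limit set here is 3 counts, which is 0.0945 CPM in the treated knockdown library, 0.0880 in the treated scramble library and 0.0905 in the untreated scramble library. BIRC3, also an NF-kB target, had 9 and 3 counts in the knockdown libraries with and without imatinib, against 11 and 14 in the matching scramble libraries. These genes were too scarce to be tested, and no direction is read from them.

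**Figure D2:**
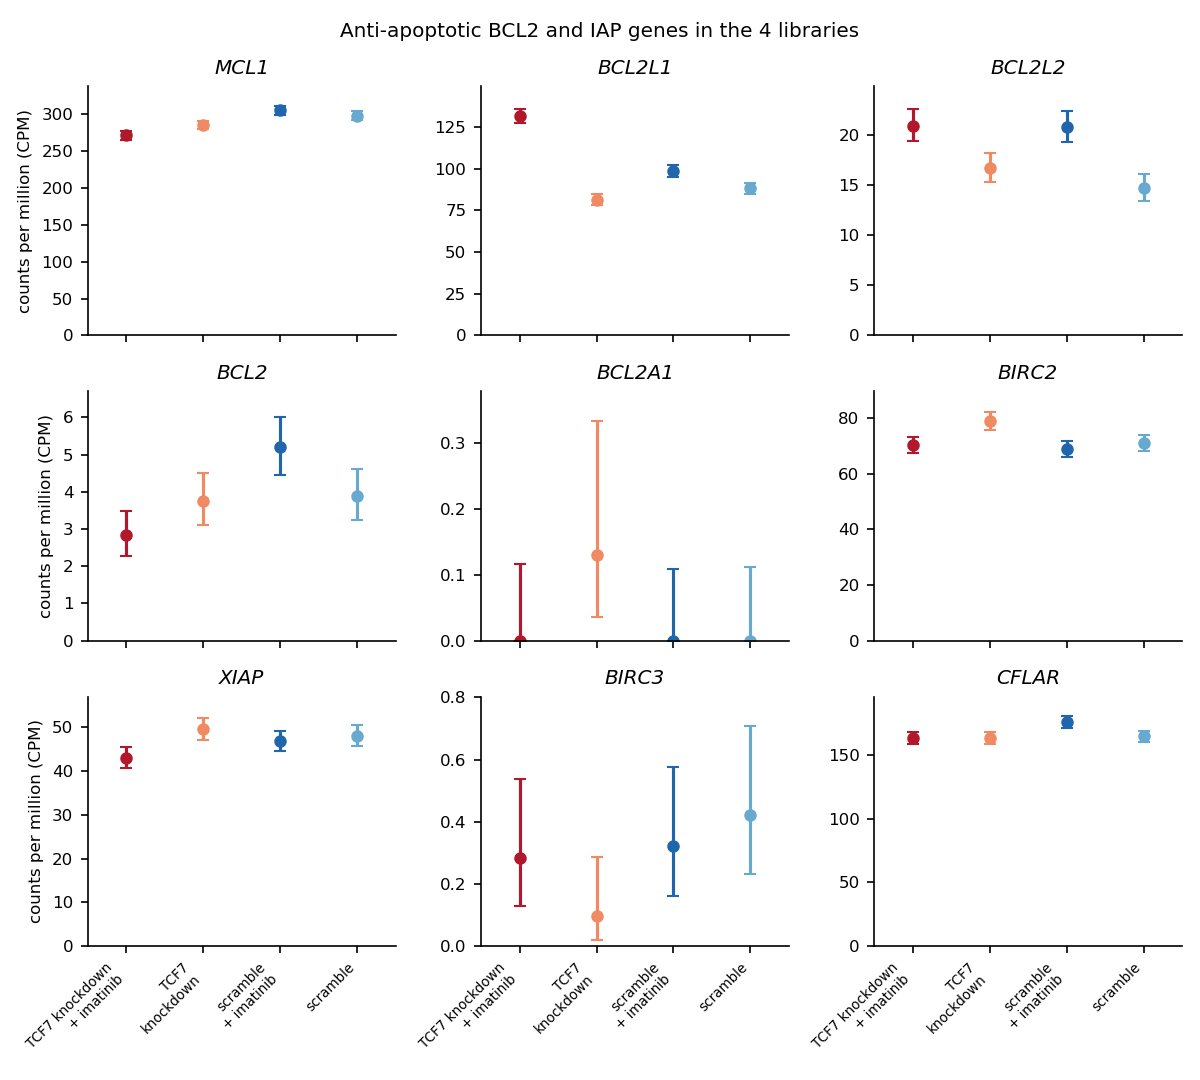
Level of each member in CPM (y axis, linear and starting at 0, with its own scale per gene) in the 4 libraries, 1 per group. Points are single libraries and bars are exact Poisson 95% intervals of the count; BCL2L1 stands highest in the treated knockdown library at 131.5 CPM, and BCL2 lowest there at 2.84 CPM.

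The knockdown comparison asks whether the survival genes differ when TCF7 is reduced. A main effect was tested with edgeR's quasi-likelihood test over all 13296 genes, with knockdown and imatinib as terms, so that 2 libraries stand against 2 and 1 residual degree of freedom is left. With 1 library per group, the spread behind the p-values is each gene's departure from additive effects, pooled over genes, and not a spread between replicates. That departure is the difference of the knockdown ratios between the imatinib states, and it may be technical. A lasting difference between the infected cultures cannot be told apart from an effect of TCF7. Of the 7 members tested 0 were called for knockdown at an edgeR adjusted p under 0.05, where 7.14% of all genes were (3.8% higher and 3.34% lower). At an unadjusted edgeR p under 0.05 the count was also 0, where 2577 of the 13296 genes were. DESeq2 called 0 members and 272 of all genes. The members' median log2 fold change was -0.02, against 0.01 for all genes.

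BCL2L1 had the smallest p of the members for knockdown, and its pairs pointed in opposite directions. It had 131.5 CPM (counting interval 127.6 to 135.6) in the treated knockdown library and 81.4 CPM (78.2 to 84.7) in the untreated knockdown library, against 98.5 CPM (95.2 to 101.9) in the treated scramble library and 88.1 CPM (84.9 to 91.3) in the untreated scramble library. The knockdown libraries are thus the highest and the lowest of the 4, and the groups overlap. The log2 ratio of knockdown over scramble was 0.44 (0.37 to 0.50) under imatinib and -0.10 (-0.18 to -0.03) without it, and with a smooth trend on GC content and length removed 0.32 and -0.08. Over both states the log2 fold change was 0.17 (SE 0.089, edgeR adjusted p = 0.299). It was called only without the untreated knockdown library, in a fit with no imatinib term (log2 fold change 0.50, edgeR adjusted p = 0.0170).

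BCL2 had the largest knockdown ratio among the tested members, under imatinib. The gene had 90 counts, or 2.84 CPM (2.28 to 3.48), in the treated knockdown library and 115 counts, or 3.75 CPM (3.10 to 4.51), in the untreated knockdown library. The scramble libraries held 177 counts, or 5.19 CPM (4.45 to 6.01), with imatinib and 129 counts, or 3.89 CPM (3.25 to 4.62), without. Both knockdown libraries were below both scramble libraries, although the untreated ones differed by less than counting error. The log2 ratios were -0.84 (-1.24 to -0.48) under imatinib and -0.04 (-0.42 to 0.33) without it, and BCL2 was not called (log2 fold change -0.45, SE 0.263, edgeR adjusted p = 0.365).

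MCL1 was slightly lower in both knockdown libraries. It had 271.6 and 285.6 CPM there with and without imatinib, against 305.3 and 298.3 CPM in the matching scramble libraries, so the groups did not overlap. The share of all genes whose groups did not overlap was not counted, so nothing is read from overlap for any member. The log2 ratios of -0.15 (-0.19 to -0.11) and -0.05 (-0.10 to -0.01) exclude 0 by counting error, but the gene was not called (log2 fold change -0.10, SE 0.070, edgeR adjusted p = 0.464). BCL2L2 had 20.9 and 16.7 CPM in the knockdown libraries with and without imatinib, against 20.8 and 14.7 CPM in the scramble libraries. Its knockdown ratios were 0.03 and 0.19, and its edgeR adjusted p was 0.733.

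Among the IAP genes BIRC2 took between 74.3% and 76.3% of the summed FPKM and XIAP nearly all of the rest. BIRC2 had 70.2 and 78.9 CPM in the knockdown libraries with and without imatinib, against 68.7 and 70.9 CPM in the scramble libraries. XIAP had 43.1 and 49.7 CPM in the knockdown libraries and 46.9 and 48.1 CPM in the scramble libraries. CFLAR had 163.7 and 163.4 CPM in the knockdown libraries and 176.1 and 164.9 CPM in the scramble libraries. For BIRC2 and XIAP the knockdown and scramble libraries overlapped. For CFLAR both knockdown libraries were below both scramble libraries, the untreated ones by less than counting error. Their log2 fold changes for knockdown lay between -0.05 and 0.11, with edgeR adjusted p of 0.531 for BIRC2, 0.932 for XIAP and 0.805 for CFLAR.

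**Figure D3:**
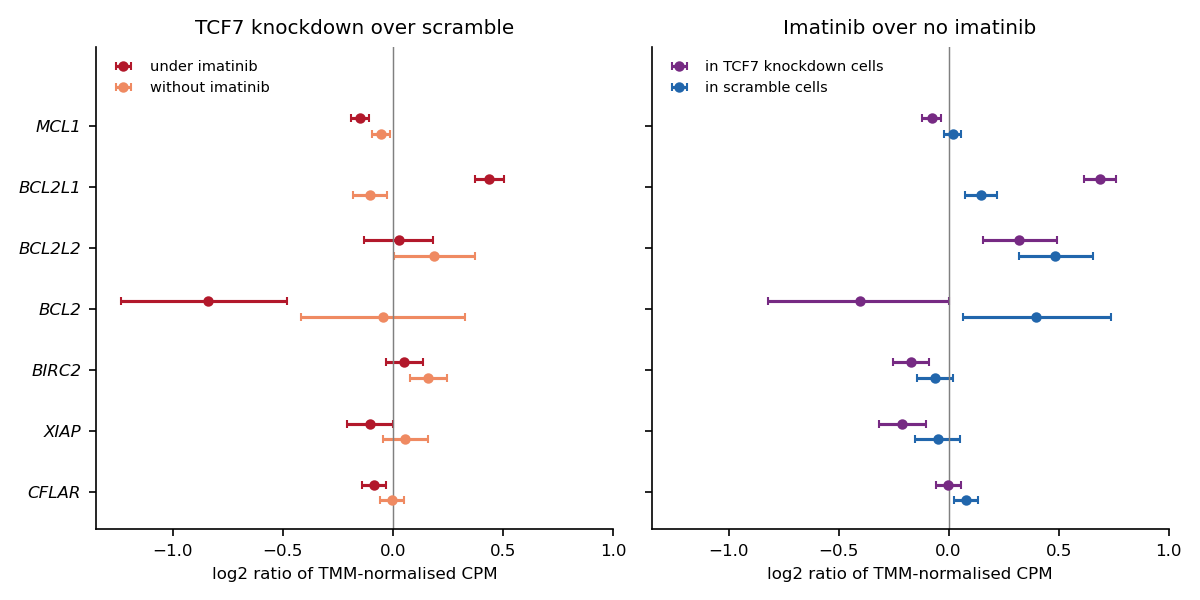
Log2 ratios of TMM-normalised CPM (x axis) for the 7 tested members, knockdown over scramble on the left and imatinib over no imatinib on the right, each in both states of the other factor. Points compare 1 library with 1 and bars are exact binomial 95% intervals of the counts; BCL2L1 lies at 0.44 and -0.10 for knockdown under and without imatinib, and BCL2 at -0.84 and -0.04.

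The imatinib comparison asks what the drug does to these genes in cells that resist it. BCL2L1 and BCL2L2 rose with imatinib over both knockdown states, and the other 5 tested members were not called. The 2 called members of 7 stand beside 20.9% of all genes called (13.8% higher and 7.08% lower), and the members' median log2 fold change was 0.02, against 0.00 for all genes. Of all genes 1839 were called higher and 941 lower, against 280 higher and 296 lower with GC and length offsets. BCL2L1 had log2 ratios of imatinib over none of 0.69 (0.62 to 0.76) in knockdown cells and 0.15 (0.07 to 0.22) in scramble cells, and a log2 fold change of 0.42 (SE 0.089, edgeR adjusted p = 0.000996). BCL2L2 had ratios of 0.32 (0.15 to 0.49) in knockdown cells and 0.48 (0.32 to 0.65) in scramble cells, and a log2 fold change of 0.40 (SE 0.129, edgeR adjusted p = 0.0234). Both genes were higher with imatinib in both pairs. The summed epithelial and stromal markers were also higher, with 519.5 CPM in treated and 415.2 CPM in untreated knockdown cells, and 496.0 CPM in treated and 448.2 CPM in untreated scramble cells. KRT8 and KRT18 carried this, since EPCAM had 46.1 CPM in treated and 58.5 CPM in untreated knockdown cells, and 46.7 CPM in treated and 51.4 CPM in untreated scramble cells, and PECAM1 was likewise lower with imatinib in both. The lymphoid gene NKG7 had 2.17 CPM in treated and 0.326 CPM in untreated knockdown cells, and 0.880 CPM in treated and 0.302 CPM in untreated scramble cells. The part of these markers in the result was not tested. BCL2L2 overlaps HOMEZ and PPP1R3E on the other strand and the read-through gene BCL2L2-PABPN1 on its own, and the strand setting of the counting is not given, so its counts are uncertain.

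These calls were lost with another tool and with GC content taken into account. DESeq2 gave BCL2L1 a log2 fold change of 0.41 (adjusted p = 0.302) and BCL2L2 0.40 (adjusted p = 0.161), about as large as with edgeR. Across the 10095 genes with a known GC content whose mean reached 5 CPM, the ratio of imatinib over none went with the GC content of the transcript. The Spearman correlation across genes was 0.75 in knockdown and 0.68 in scramble cells, given as a description since all points share the same libraries. BCL2L1 has 56.9% GC and BCL2L2 52.3%, while the other members have between 34.8% and 45.6%. After subtraction of a smooth fit on GC and length, BCL2L1 had 0.36 in knockdown cells and -0.03 in scramble cells, and BCL2L2 0.17 and 0.40. With the same trend as offsets in edgeR the log2 fold change was 0.16 for BCL2L1 (adjusted p = 0.148) and 0.29 for BCL2L2 (adjusted p = 0.166). Of 5 edgeR fits without a knockdown term, 4 called no gene at all for imatinib, so that a call lost there says nothing of a single gene. In those 4 the log2 fold change of BCL2L1 was 0.43 with all libraries, 0.21 without the treated knockdown library, 0.38 without the untreated knockdown library and 0.49 without the untreated scramble library. Without the treated scramble library BCL2L1 had 0.64 (edgeR adjusted p = 0.0133) and BCL2L2 0.42 (edgeR adjusted p = 0.182). BCL2L2 had between 0.31 and 0.50 in the other 4.

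**Figure D4:**
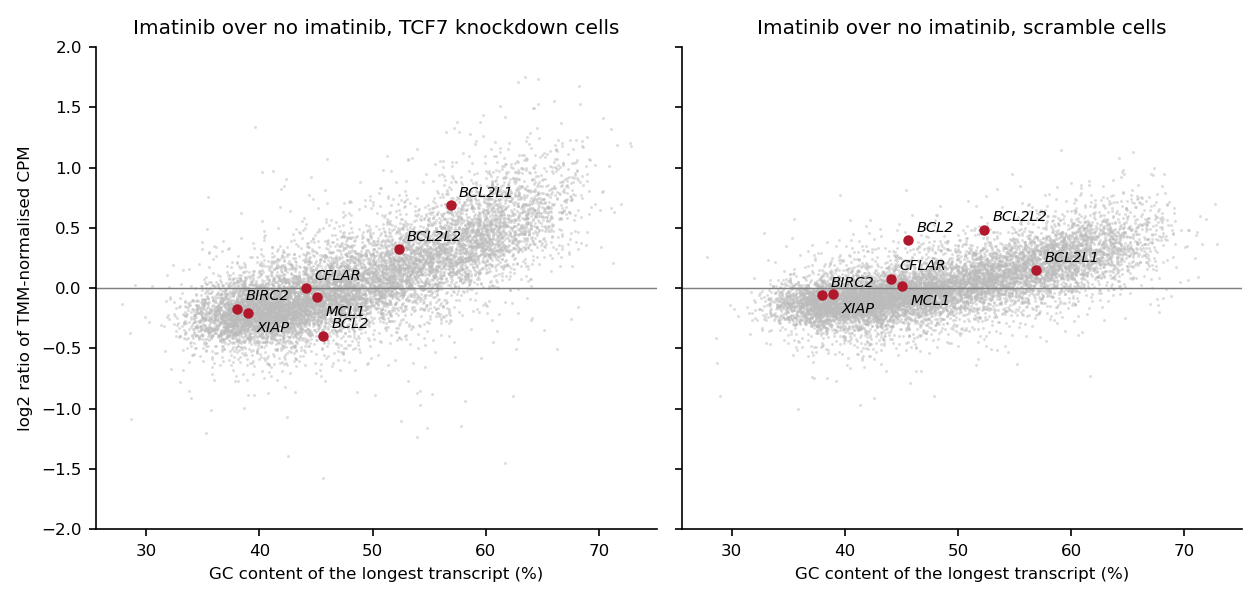
Log2 ratio of imatinib over no imatinib (y axis) against GC content of the longest transcript (x axis, %). Knockdown cells are on the left and scramble cells on the right. Grey points are the 10095 genes with a known GC content whose mean reached 5 CPM. Red points are the 7 tested members, of which BCL2 is below that level. BCL2L1 and BCL2L2 are the members with the highest GC content, 56.9% and 52.3%, and BCL2L1 lies at 0.69 in knockdown cells and 0.15 in scramble cells.

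The remaining members had small or opposed imatinib ratios. BCL2 was lower with imatinib in knockdown cells (-0.40, -0.82 to 0.00) and higher in scramble cells (0.39, 0.06 to 0.74), with an edgeR adjusted p of 0.975. MCL1 had -0.08 and 0.02 in knockdown and scramble cells, and CFLAR 0.00 and 0.08. XIAP had -0.21 and -0.05 and BIRC2 -0.17 and -0.06, and with the trend removed the larger of these, in knockdown cells, were -0.01 and 0.03. The edgeR adjusted p of these 5 genes ranged up to 0.975 and was lowest, at 0.323, for BIRC2.

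BCL2L1 and BCL2 differed most between the imatinib states. The knockdown ratio under imatinib minus that without it was 0.54 (counting interval 0.44 to 0.64) for BCL2L1 and -0.80 (-1.31 to -0.28) for BCL2 on the log2 scale. With the GC and length trend removed the differences were 0.40 and -0.80. The difference was not tested, since 1 library per group leaves no error for it, and it enters the spread used to test the main effects. Over all 13296 tested genes its median was 0.02, the middle 95% of genes lay between -0.83 and 0.95, which holds both values, and 1102 genes were at or above the value of BCL2L1. Among the 10105 genes whose mean reached 5 CPM, which leaves out BCL2, the middle 95% lay between -0.42 and 0.60 and 343 genes were at or above BCL2L1. MCL1, XIAP, BIRC2, CFLAR and BCL2L2 had differences between -0.16 and -0.08.

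No tested member reached a 2-fold ratio in any pair of libraries. For knockdown over scramble, 2.83% of all genes did under imatinib and 2.68% without it. For imatinib over none the shares were 3.71% in knockdown cells and 1.31% in scramble cells. For the treated knockdown library over the untreated scramble library, 4.75% of genes were at 2-fold. In that last pair BCL2L1 had a log2 ratio of 0.58 (0.51 to 0.65), BCL2L2 0.51 (0.34 to 0.68), BCL2 -0.44 (-0.86 to -0.05), XIAP -0.15, MCL1 -0.13, BIRC2 -0.01 and CFLAR -0.01, and with the trend removed BCL2L1 had 0.28 and BCL2L2 0.37.

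Some genes lay close to BCL2L1 in their pattern over the 4 libraries. Its log2 CPM relative to its own mean was 0.43 in the treated knockdown library, -0.26 in the untreated knockdown library, -0.01 in the treated scramble library and -0.16 in the untreated scramble library. Among 10105 genes, the 5 nearest by Euclidean distance over these 4 values were C12orf57 (0.030), TMEM101 (0.039), C22orf46 (0.041), SEPT9 (0.044) and C1RL (0.044). Their transcripts have between 52.3% and 60.1% GC.

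Of 63 tested genes around the members in 6 pathway lists, 4 were called for knockdown, 6.35% against 7.14% of all genes, and 18 for imatinib, 28.6% against 20.9% of all genes. Of all 13296 genes, 2577 were at an unadjusted edgeR p under 0.05 for knockdown. DESeq2 called 272 of all genes for knockdown and 1003 for imatinib. Of the pro-apoptotic BCL2 family, the proteins that the guardians bind, 1 of 9 tested rose with knockdown and 0 fell. This was BCL2L11, which encodes BIM (log2 fold change 0.30, edgeR adjusted p = 0.0314), with ratios of 0.32 under and 0.29 without imatinib. DESeq2 did not call it (adjusted p = 0.332). With GC and length offsets, which called 1628 of all genes for knockdown against 949, its edgeR adjusted p was 0.000808. With imatinib 4 of the 9 rose and 0 fell. They were BAK1 (0.69 in knockdown and 0.58 in scramble cells), BAX (0.53 and 0.46), BBC3, which encodes PUMA (1.29 and 1.27), and BAD (1.70 and 0.17). With the offsets 0 of the 9 were called for imatinib, and DESeq2 called BAK1 and BAX and gave no adjusted p for BBC3 and BAD.

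Among 15 tested caspase and death receptor genes, CASP8, the caspase that CFLAR restrains, rose with knockdown (0.47 under and 0.17 without imatinib, edgeR adjusted p = 0.0161), and TNFRSF10B, a receptor of TRAIL, fell (-0.30 and -0.31, edgeR adjusted p = 0.0423). DESeq2 called neither. With the offsets edgeR called 2 of the list as higher and 2 as lower for knockdown, with adjusted p of 0.000289 for CASP8 and 0.00334 for TNFRSF10B. With imatinib TRADD, an adaptor of the TNF receptor (0.98 in knockdown and 0.85 in scramble cells), and TNFRSF1A, that receptor (0.64 and 0.21), rose, and CYCS, cytochrome c (-0.37 and -0.20), fell. With the offsets none of these 3 was called (edgeR adjusted p of 0.424, 0.487 and 0.125), and DESeq2 called CYCS only, with no adjusted p for TRADD. Of 5 tested other IAP genes and IAP antagonists, 0 were called for knockdown by edgeR (1 at an unadjusted p under 0.05) or DESeq2, and BIRC6, a giant IAP protein, fell with imatinib (-0.25 and -0.14). That call was lost with DESeq2 (adjusted p = 0.0813) and with the offsets (0.637).

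Of 13 tested NF-kB subunits, kinases and feedback genes, 0 were called for knockdown by edgeR (2 at an unadjusted p under 0.05) or DESeq2. With the offsets edgeR called 1 of the 13 for knockdown, as lower. With imatinib NFKBIB, an inhibitor of NF-kB (0.53 in knockdown and 0.41 in scramble cells), rose and CHUK, a kinase of the pathway (-0.31 and -0.16), fell. Both calls were lost with DESeq2 (adjusted p of 0.0889 and 0.148) and with the offsets (0.761 and 0.760), and with the trend removed the ratios were 0.05 and 0.14 for NFKBIB and -0.09 and -0.04 for CHUK. Of 14 genes of the BCR-ABL and STAT5 axis, STAT5A alone was called for knockdown and fell (-0.16 under and -0.30 without imatinib, edgeR adjusted p = 0.0452). That call was lost with DESeq2 (adjusted p = 0.226) and kept with the offsets (edgeR adjusted p = 0.000636). With imatinib 7 rose and 1 fell, among them PIM1, a survival kinase induced by STAT5 (0.46 and 0.35), PIM3 (0.71 and 0.68), ABL1 (0.40 and 0.27) and CISH, a STAT5 feedback gene (0.48 and 0.42), which all rose. With the offsets 0 of the 14 were called for imatinib. With the trend removed the ratios in knockdown and scramble cells were 0.17 and 0.18 for PIM1 and -0.06 and 0.22 for PIM3. They were -0.05 and 0.02 for ABL1 and 0.16 and 0.24 for CISH. The 7 genes of MCL1 protein turnover, such as the ubiquitin ligase HUWE1 and the deubiquitinase USP9X, had 0 calls for either effect by edgeR, 0 at an unadjusted p under 0.05 and 0 by DESeq2. Of all 13296 genes, 2577 were at that unadjusted edgeR p for knockdown and 4570 for imatinib.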

How the data were processed

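Ribosomal RNA was removed from 3 µg of total RNA per culture, and strand-specific libraries were prepared, per the labels' protocols. The submitters' processing notes name FastQC, HISAT2, HTSeq 0.6.1 and GRCh38; annotation release and strand setting are not given there. The deposited counts are whole numbers per gene, per the file headers, and entered the tests unchanged. Because 6 genes (no member) have negative values, the deposited FPKM is handled as a score; it gives the levels per length and implies a whole-number length for every gene (tolerance 0.01). The deposited log2 columns, log2 of 1 plus FPKM per the file headers, were not used.

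CPM divides by the total count. Ratios were taken after TMM scaling, with 2 added as the prior count, and intervals are exact 95% binomial or Poisson intervals of the counts. The main effects were tested with edgeR 4.0.16 (R 4.3.3), a step checked beforehand on counts with known changes; 33.74 prior degrees of freedom were shared across genes and adjustment was Benjamini-Hochberg over 13296 genes. GC content and length came from the longest GENCODE 29 transcript (28329 genes matched, 13255 of those tested), with trends from mgcv 1.9.3. DESeq2 1.42.0, other scalings, filters, a prior count of 0.5, thinned counts, log2 of deposited FPKM plus 0.1, and left-out libraries were alternatives. Comparison of the members' protein sequences was not run.

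The members, the 6 pathway lists and the alternatives were chosen with earlier results of these data known. Named genes are the members, TCF7, up to 4 called genes per list with the smallest adjusted p, and the 5 genes nearest in pattern to the member with the largest range. A marker gene of the lymphoid list, and the sum of that list, are not reported here.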

Additional observations from a re-analysis of the deposited data

Results flagged for a closer look

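For 5 members, the ratios of 1 contrast pointed in opposite directions in the 2 states of the other factor, with 1 library on each side; none of these differences was tested. BCL2L1 had a knockdown ratio of 0.44 under imatinib and -0.10 without it, a difference of 0.54 on the log2 scale. XIAP had a knockdown ratio of -0.10 under imatinib and 0.06 without it, a difference of -0.16. For imatinib over none, BCL2 had -0.40 in knockdown and 0.39 in scramble cells, a difference of -0.80. MCL1 had -0.08 in knockdown and 0.02 in scramble cells, a difference of -0.095, and CFLAR -0.002 and 0.079, a difference of -0.081. With the GC and length trend removed CFLAR had 0.107 and 0.169, in the same direction, while the other members named here kept opposite directions. The share of all genes with opposed ratios was not counted. The counting intervals of both ratios excluded 0 for BCL2L1 only.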

How the results depend on the processing

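No paired analysis was possible because the labels give no replicate numbers and each group has 1 library. Genes called for knockdown, 949 in the main result, numbered 272 with DESeq2, 1628 with GC and length offsets and 0 without the imatinib term (818 at an unadjusted p under 0.05), and between 24 and 746 with a library left out. Genes called for imatinib, 2780, numbered 1003 with DESeq2, 576 with the offsets and 0 without the knockdown term (2651 at an unadjusted p under 0.05), and between 0 and 848 with a library left out. Fits with a library left out hold 1 factor, and a lone library in an arm is assumed to vary like the others. Members called for imatinib numbered 0 with DESeq2, with the offsets and without the knockdown term, against 2, and from 0 to 1 with a library left out; for knockdown they numbered 0 to 1. Of the pathway genes 4 were called for knockdown, against 0 with DESeq2 and 7 with the offsets, and 18 for imatinib, against 9 and 2. The 2 called for imatinib with the offsets were not among the 18.

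With a fold limit of 1.5 in place of 2, 1 member passed in the knockdown library with imatinib over the scramble library with imatinib (BCL2) and 1 over the knockdown library (BCL2L1). The share of all genes past 1.5-fold was not counted, so nothing is read from this about the members. With the GC and length trend removed, the difference of knockdown ratios of BCL2L1 was 0.40, and 11 of 35 member ratios changed sign. In 7 of them the counting interval of the ratio held 0, and the other 4 were CFLAR for knockdown under imatinib (0.012), BCL2L1 for imatinib in scramble cells (-0.034), BIRC2 for imatinib in knockdown cells (0.032), and XIAP for the knockdown library with imatinib over the scramble library (0.069). The cause was not tested. Of 210 recomputed member ratios, 192 stayed within the counting interval; the other 18 are all from the trend removal. With transcript length in place of the authors' length, the order of members per length was the same in 3 libraries, and XIAP and BCL2L2 changed places in the scramble library with imatinib. Depth limits BCL2, BCL2A1 and BIRC3, which have at most 177 counts.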

Other observations

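For the 5 tested genes on each side of BCL2L1 on chromosome 20, the log2 ratio of knockdown over scramble under imatinib ran from -0.95 to 0.43 with a median of 0.06, where BCL2L1 had 0.44. For imatinib over none in knockdown cells it ran from -1.26 to 1.09 with a median of 0.10, where BCL2L1 had 0.69. For the 10 neighbours of BCL2 on chromosome 18, the ratio of knockdown over scramble under imatinib ran from -0.75 to 0.24 with a median of -0.16, where BCL2 had -0.84. The antisense gene ABALON, which overlaps BCL2L1, had 18 and 24 counts in the knockdown libraries with and without imatinib, against 22 and 11 in the scramble libraries.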
